A study of Mus musculus with 6 samples.

Results

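Brain endothelium was compared with brain glia across 12442 genes by setting the 3 libraries numbered replicate 1, which held almost only endothelial cells, against the 3 numbered replicate 2, which held mostly oligodendrocytes and astroglia. The 6 libraries are all those of the series, and they were split by their replicate number and compared within their genotype group. Each library is a set of single-cell droplets from brain cortex and subventricular zone of mice aged 8 to 12 weeks, and counts were unique molecules (UMIs) at the 3′ end of transcripts. Per the labels, cells were gated by flow cytometry as endothelial (CD31+Glast-CD45-) or as neural stem and progenitor cells (CD31-Glast+CD45-). The labels do not say how these fractions were divided between libraries. The groups were Cx43flox/flox mice, titled CT and called control here, Cx43GlastiKO mice, titled Glast, and Cx43ECiKO mice, titled Vecad, with 1 library of each number per group. Cx43 is connexin 43, the product of Gja1. The labels name no Cre driver, inducing agent or number of animals, so the p-values measure only the spread between these libraries. Barcodes entered the sums if they held 300 genes or more and no more than 20% of their UMIs were mitochondrial, which left 6323 of 7433. These sums held 2842632, 1819764 and 1323898 UMIs in the libraries numbered 1 (control, GlastiKO and ECiKO, the order used for all sets of 3 values) and 9432126, 14323484 and 4945330 in those numbered 2.

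Brain endothelial cells form the blood-brain barrier: tight junctions seal the space between them, and dedicated transporters carry amino acids, glucose, hormones and iron across them. Oligodendrocytes wrap axons in myelin, a lipid-rich membrane stack held together by a few very abundant proteins. Astroglia place endfeet on the vessels, take up glutamate, buffer potassium and water, and supply lipids and growth factors. Gene families such as claudins, connexins and SOX factors have members in endothelium and in glia, some of them shared.

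The defining markers bore out the 2 kinds of library, with most barcodes of the libraries numbered 2 assigned to oligodendrocytes and astroglia. The marker lists hold no class for neural stem cells, which share markers with astroglia, so stem cells were not told apart from astroglia. A barcode was assigned to a cell class when it held at least 5 UMIs of the marker genes and at least 70% of them came from 1 class. Endothelial-marker barcodes made up 93.9%, 89.5% and 96.1% of the libraries numbered 1, and mural-marker barcodes (pericytes and smooth muscle) 4.27%, 6.24% and 1.46%. Endothelial-marker barcodes held 91.0%, 85.9% and 95.3% of their UMIs. In the libraries numbered 2, oligodendrocyte-marker barcodes made up 47.8%, 50.5% and 74.4% of the barcodes and astroglial-marker barcodes 43.3%, 34.4% and 5.99%. Of the UMIs, oligodendrocyte-marker barcodes held 74.6%, 75.1% and 76.1% and astroglial-marker barcodes 19.5%, 15.02% and 7.41%. Neuroblast-marker barcodes held a UMI share of 0.166%, 1.23% and 1.44%, and choroid plexus-marker barcodes 1.87%, 3.02% and 6.83%. Endothelial-marker barcodes still made up 4.88%, 5.43% and 0.839% of the barcodes and 1.27%, 1.48% and 0.773% of the UMIs of the libraries numbered 2. A gene read from endothelial cells alone, at equal levels in both kinds of library, would therefore show a log2 ratio of 6.17, 5.86 and 6.95 in the 3 groups. The library labelled ECiKO replicate 2 stood apart by depth, with a median of 786 UMIs per barcode against 8057 and 10859 in the other two numbered 2, and 9.94% of its barcodes were assigned to no class. A class's own markers (such as Gja1, Slc1a2 and Aqp4 for astroglia, Mal, Cnp and Ugt8a for oligodendrocytes, Vtn and Pdgfrb for mural cells) helped to assign its barcodes, so their levels there are in part set by the assignment. In such sums, fewer cells of a type and less RNA per cell cannot be told apart.

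**Figure D1:**
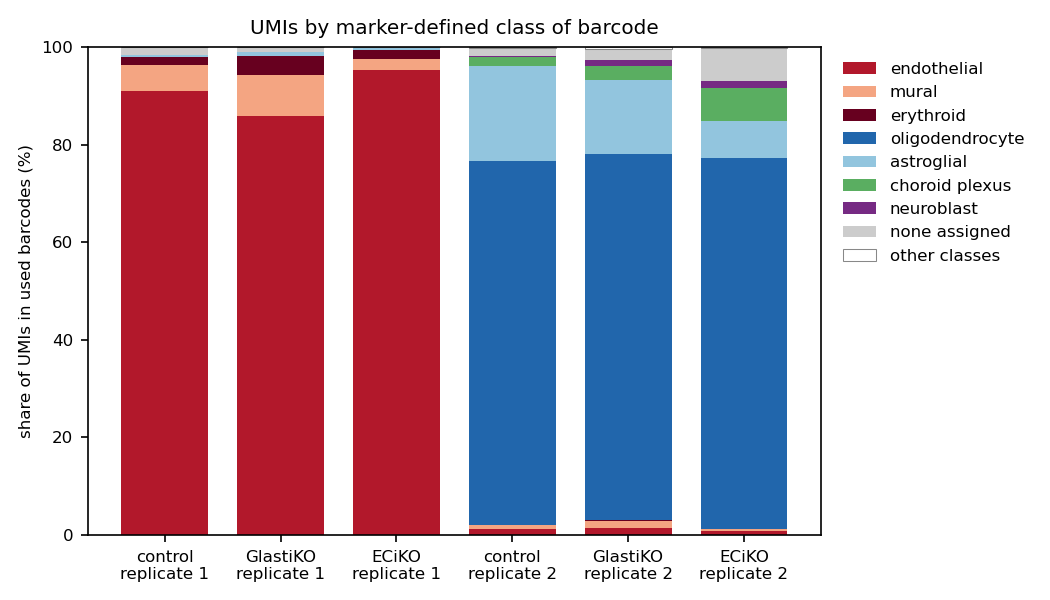
Share of the UMIs of used barcodes (y axis, %) in each marker-defined class, for the 6 libraries (x axis). Endothelial-marker barcodes held between 85.9% and 95.3% of the UMIs of the libraries numbered 1 and at most 1.48% of those numbered 2, where oligodendrocyte-marker barcodes held 74.6% to 76.1%.

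Gja1 (chromosome 10, 56377330 to 56402513, plus strand, mm10), the targeted gene, was read at 88.7, 141 and 223 CPM in the libraries numbered 1 and at 516, 401 and 235 CPM in those numbered 2. CPM are UMI counts scaled to a common library total, with trimmed mean of M-values factors. The 2 sets did not overlap, but the library pair labelled ECiKO differed little, at 223 against 235 CPM. The log2 fold change, given throughout as number 1 minus number 2 with its standard error (n = 3 against 3), was -1.39 ± 0.37 (edgeR quasi-likelihood test with Benjamini-Hochberg adjustment, adjusted p = 0.00696). It was -0.76 without control replicate 1, -0.83 without control replicate 2, and -2.03 and -2.08 without ECiKO replicate 1 or 2. Astroglial-marker barcodes of the libraries numbered 2 held 2555, 2514 and 2584 CPM, oligodendrocyte-marker barcodes 4.41, 5.58 and 13.6 CPM, and endothelial-marker barcodes of the libraries numbered 1 89.7, 140.0 and 232 CPM. Endothelial-marker barcodes of the library labelled ECiKO replicate 1 thus held more Gja1 than those of control. Astroglial-marker barcodes of the library labelled GlastiKO replicate 2 held about as much as those of control. The loss that each label implies was not seen in these values, with 1 library of each number per group. Gja1 helped to assign astroglial-marker barcodes, so its level there cannot check the label. The labels do not give the deleted part of the gene, and a 3′ tag outside it would check nothing. The group names are used below only as labels of library pairs.

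Across all genes tested, 4023 (32.3%) were called higher in the libraries numbered 1 and 4768 (38.3%) higher in those numbered 2. A ratio of at least 2-fold in every one of the 3 pairs was met by 2112 genes (17%) for number 1 and 2601 genes (20.9%) for number 2. With 70.7% of genes called in one direction or the other, a call by itself says little, and the counts of each gene group below are to be read against these shares. The median log2 fold change over all genes was -0.10. Of the called genes, 215 had libraries that overlapped between the numbers and 63 had a ratio of opposite sign, or of 0, in at least 1 pair. DESeq2 called 3262 and 4047 genes.

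The genes that separated the libraries most evenly in favour of number 1 were endothelial receptors, ligands, regulators and barrier transporters. Podxl, the gene of podocalyxin, an anti-adhesive surface sialomucin, was read at 727, 737 and 668 CPM in the libraries numbered 1 and at 7.77, 9.34 and 6.33 CPM in those numbered 2, a log2 fold change of 6.49 ± 0.19. Flt1, the decoy receptor of VEGF, was read at 5628, 5345 and 6310 against 83.7, 87.8 and 69.4 CPM (6.17 ± 0.28). Pdgfb, the growth factor by which endothelium recruits pericytes, was read at 595, 526 and 614 against 8.1, 7.7 and 3.93 CPM (6.40 ± 0.24). In these 3 genes every library numbered 1 stood far above every one numbered 2. Slc7a5, which carries large neutral amino acids across the barrier, had a log2 fold change of 6.27 ± 0.23, and Abcb1a, the P-glycoprotein drug efflux pump, one of 6.34 ± 0.25. Edn1, the vasoconstrictor endothelin 1, was read at 356, 354 and 393 against 4.96, 5.49 and 2.4 CPM. Jag2, a Notch ligand, Fli1, an ETS factor of the endothelial lineage, and Rasip1, a GTPase effector needed for vessel lumens, had log2 fold changes of 6.29, 6.26 and 6.31. Adgrl4, an orphan adhesion receptor of endothelium, Cd93, a C-type lectin-like receptor, and Cyyr1, a small membrane protein, completed the 12 with 6.43, 6.22 and 6.18. Adjusted p of these 12 genes was at most 3.26e-08. All 12 values lie within the range of the log2 ratios of the endothelial share of UMIs, 5.86 to 6.95.

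The genes that stood out for number 2 were mostly those of oligodendrocytes, with 1 gene of the choroid plexus. Ptgds, the prostaglandin D synthase of oligodendrocytes and meninges, was read at 9496, 6894 and 14320 CPM in the libraries numbered 2 and at 1.34, 1.1 and 2.16 CPM in those numbered 1, from 4, 2 and 3 UMIs. Mag, an adhesion protein of the inner myelin layer, gave 2325, 2435 and 2260 CPM in the libraries numbered 2 and 1, 1 and 0 UMIs in those numbered 1. Mobp, a protein of compact myelin, gave 1727, 2063 and 1996 CPM and 1, 0 and 0 UMIs, and Ermn, a cytoskeletal protein of oligodendrocytes, 1872, 1903 and 2254 CPM and 0, 0 and 1 UMIs. Stmn4, a stathmin that binds tubulin, and Gjc3, a glial connexin, had 1, 1 and 1 and 1, 0 and 0 UMIs in the libraries numbered 1 against 1095, 1119 and 1240 and 688, 706 and 740.0 CPM in those numbered 2. No UMI was read in any library numbered 1 for Gpr37, an oligodendrocyte receptor, Aspa, the enzyme that cleaves N-acetylaspartate for myelin lipids, Kcna1, a potassium channel subunit, or Evi2a, a membrane protein. Counting 3 UMIs as the floor of each library, these 4 were at least 294-fold, 282-fold, 203-fold and 185-fold higher in number 2. Ttr, the thyroid hormone carrier of choroid plexus, was read at 3810, 7331 and 15260 CPM in the libraries numbered 2. Choroid plexus-marker barcodes held 199516, 236934 and 203528 CPM of it, and Ttr is itself one of the markers that define them. Several of these genes are also markers of their class, so their levels describe the libraries rather than test them.

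**Figure D2:**
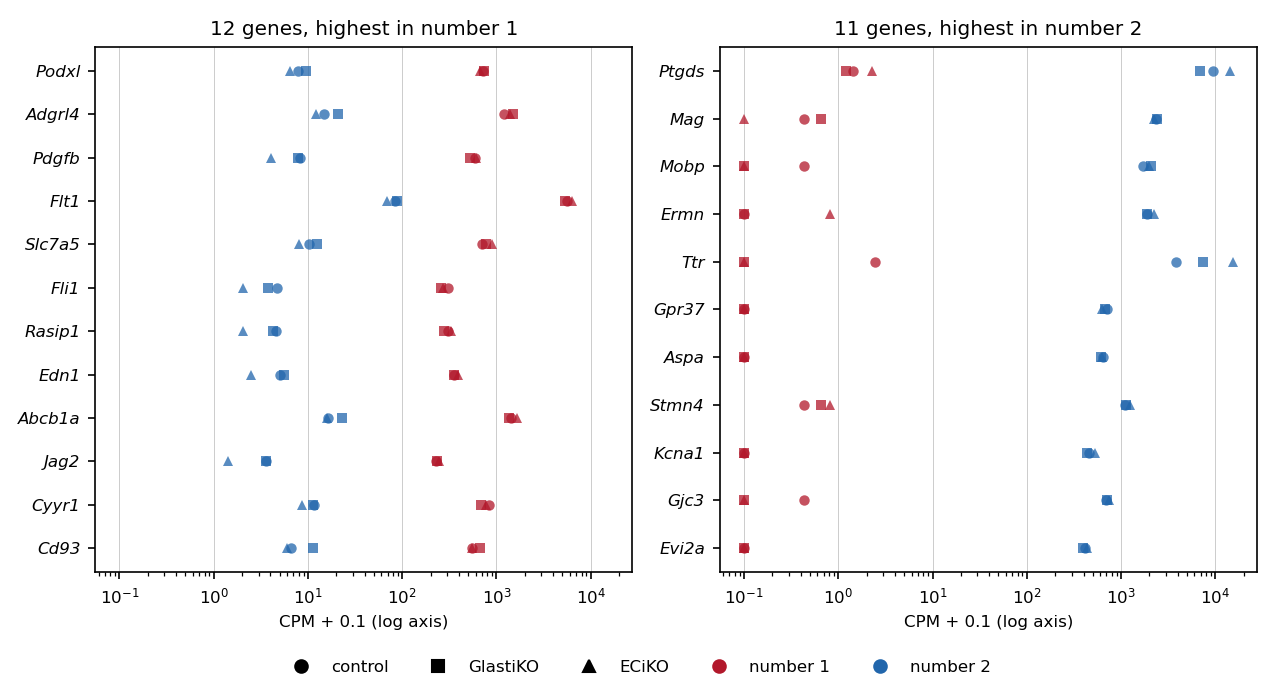
CPM of genes among those with the largest smallest-pair ratio, plotted as CPM + 0.1 on a log axis, for each of the 6 libraries (symbols are groups, colours are library numbers). Libraries of one number lie apart from those of the other in each of the genes drawn, and Gpr37, Aspa, Kcna1 and Evi2a are at 0 in all libraries numbered 1.

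Promoter sequences are shown for 2 of the named endothelial genes and 2 of the named oligodendrocyte genes, because ETS factors (with a GGAA core) and SOX factors (with an ACAA core) differed between the 2 sides, as described further on. They come from RefSeq on GRCm38.p6, run from 250 bases before to 50 after the gene start, 5′ to 3′ on the gene's strand, and capitals mark the motif named for each promoter, while other searched motifs in them are left in lower case. In Flt1 (chr5:147725962-147726261, minus strand) the capitals mark AGGAAGT starting 53 bases before the gene start. In Rasip1 (chr7:45627287-45627586, plus strand) they mark the reverse complement of CAGGAAG, 91 bases before. In Mobp (chr9:120149492-120149791, plus strand) they mark 3 reverse complements of ACAAAGG, 222, 133 and 121 bases before. In Ermn (chr2:58052815-58053114, minus strand) they mark ACAATGG, 234 bases before.
Flt1: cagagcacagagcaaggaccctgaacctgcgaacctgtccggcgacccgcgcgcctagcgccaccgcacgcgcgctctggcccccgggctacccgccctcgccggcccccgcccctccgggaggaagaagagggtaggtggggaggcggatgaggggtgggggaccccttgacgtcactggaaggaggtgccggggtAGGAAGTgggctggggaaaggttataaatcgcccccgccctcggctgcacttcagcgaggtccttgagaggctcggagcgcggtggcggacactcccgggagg
Rasip1: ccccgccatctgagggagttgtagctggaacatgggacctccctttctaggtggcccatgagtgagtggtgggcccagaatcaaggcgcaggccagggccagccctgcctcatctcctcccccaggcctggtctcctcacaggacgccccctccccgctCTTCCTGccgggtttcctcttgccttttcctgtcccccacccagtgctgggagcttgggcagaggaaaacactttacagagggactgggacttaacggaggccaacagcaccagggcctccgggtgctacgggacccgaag
Mobp: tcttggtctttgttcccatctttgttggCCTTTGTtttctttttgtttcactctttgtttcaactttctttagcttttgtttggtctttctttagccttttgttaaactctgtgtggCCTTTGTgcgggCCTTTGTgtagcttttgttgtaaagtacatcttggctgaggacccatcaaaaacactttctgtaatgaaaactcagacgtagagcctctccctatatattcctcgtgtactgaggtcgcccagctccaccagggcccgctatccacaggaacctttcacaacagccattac
Ermn: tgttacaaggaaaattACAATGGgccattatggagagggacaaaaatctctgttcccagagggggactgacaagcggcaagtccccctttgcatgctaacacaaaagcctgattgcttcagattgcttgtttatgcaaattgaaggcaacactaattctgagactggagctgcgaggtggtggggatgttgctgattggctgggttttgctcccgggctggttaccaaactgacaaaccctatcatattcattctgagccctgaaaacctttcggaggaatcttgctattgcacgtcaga

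In all, 19 motifs were searched on both strands. Those of ETS factors were the core GGAA and, containing it, the form CAGGAAG, the form CCGGAAGT, the form AGGAAGT and the form ACAGGAA. Those of SOX factors were the motif AACAAT, the motif ACAATGG and the motif ACAAAGG. The others were the KLF motif CACCC, the TATA box as TATAAA, the CCAAT box, the GC box as GGGCGG, the CRE motif TGACGTCA, the AP-1 motif TGACTCA, the hexamer CGTGAC, the GATA motif GATAAG, the E-box CAGCTG, the E-box CATATG and the forkhead motif TGTTTAC. Promoters were matched by symbol, taking the first listed start, for 1565 of the 2112 genes higher in number 1 in every pair, 1976 of the 2601 higher in number 2, and 9692 of all tested genes. CAGGAAG was present in 15% of the promoters of the number 1 genes, 8.81% of the number 2 genes, 11.6% of tested genes and 13% of all 27025 promoters. AGGAAGT was present in 10.1%, 6.02%, 8.27% and 9.57%. The longer ETS form CCGGAAGT was less frequent on both sides, at 2.81% and 3.9%, than among tested genes (8.52%). ACAATGG was present in 1.85%, 2.88%, 1.96% and 3.71%, and ACAAAGG in 4.73%, 5.06%, 4.13% and 5.79%. A match is a description of letters and not a binding site, and the shares were not tested.

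Since library number and cell type coincide, the same genes were looked at inside single libraries, where endothelial-marker and glial-marker barcodes were processed together. The genes considered were those with a mean of at least 100 CPM that differed at least 2-fold in every pair and were no markers. Of 374 such genes higher in number 1, 366 were also higher in the endothelial-marker barcodes than in the oligodendrocyte- and astroglial-marker barcodes of each of the 3 libraries numbered 2. Of 470 higher in number 2, 462 were lower in the endothelial-marker barcodes of each library. The median log2 difference within libraries was 3.59 for the first set and -2.45 for the second, beside medians of 3.44 and -2.65 between libraries. Endothelial-marker barcodes themselves differed between libraries of the 2 numbers by a median of -0.003 and -0.056 on the log2 scale in these sets. The 16 exceptions all had the opposite sign only in the library labelled ECiKO replicate 2, which had 21 endothelial-marker barcodes. Among them were Fos, Fosb, Hspa1a and Hspa1b. Hspa1a and Hspa1b were higher in endothelial-marker barcodes of number 1 than of number 2 in all 3 groups (log2 differences 2.63, 1.09 and 4.75, and 2.60, 1.10 and 4.92). Fos (-0.935, 0.403 and 4.33) and Fosb (-0.577, 0.625 and 4.94) went in both directions. Both kinds of barcode are part of the library totals that selected the genes. Oligodendrocyte-marker barcodes alone held 74.6% to 76.1% of the UMIs of the libraries numbered 2. The agreement in sign is therefore not independent of that selection, and these values carry no test.

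**Figure D3:**
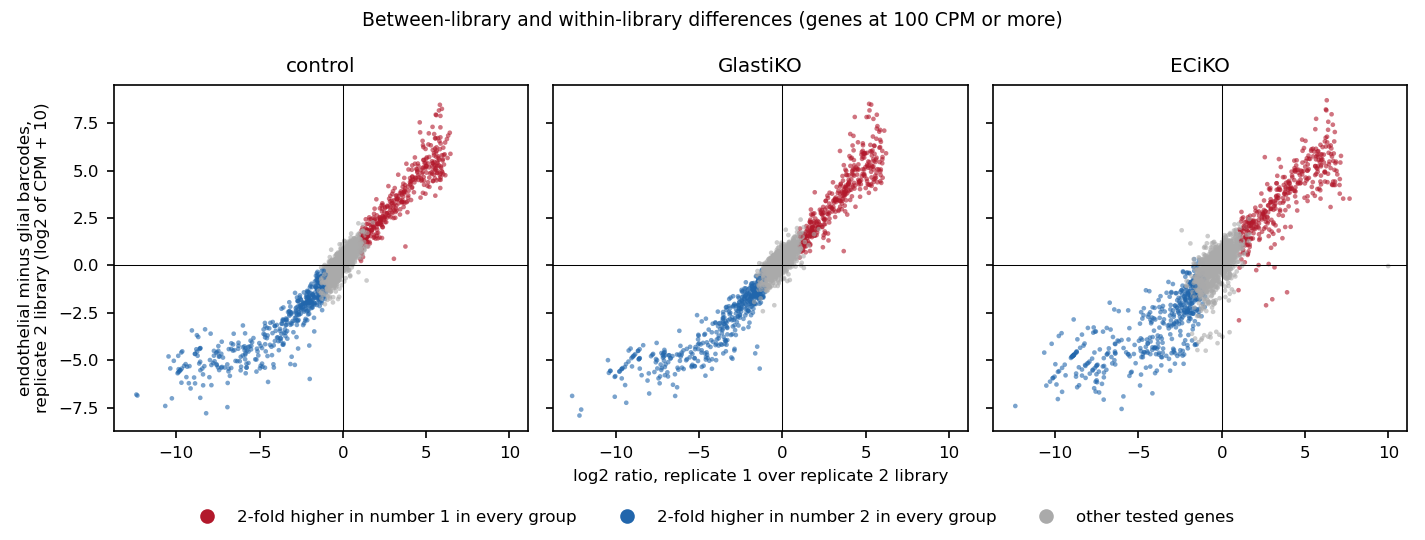
For 1784 tested genes at 100 CPM or more that are no markers, the log2 ratio between the 2 libraries of a group (x axis) against the log2 difference between endothelial-marker and glial-marker barcodes inside the library numbered 2 (y axis, CPM + 10), in the 3 groups. Of the genes at least 2-fold apart between libraries in every pair, 366 of 374 and 462 of 470 lie on the same side of 0 on both axes in all 3 groups. Both axes draw on the UMIs of the library numbered 2, so they are not independent.

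All 25 tested genes of endothelial receptors and identity were called higher in number 1, with a median log2 fold change of 5.95. This list, like those of endothelial factors and myelin proteins, was named for a cell type and chosen with earlier results known. Such counts describe the libraries rather than test them. Ptprb, a phosphatase that restrains Tie2 signalling, was read at 2211, 2078 and 2522 against 40.0, 40.2 and 32.1 CPM. Kdr, the main signalling receptor of VEGF, was read at 1212, 1153 and 1084 against 24.6, 27.7 and 24 CPM (5.50 ± 0.19), and Tek, the angiopoietin receptor Tie2, had a log2 fold change of 6.01. The lowest fold changes were those of the neuropilins Nrp1 (4.11) and Nrp2 (2.15). The ligands were divided. Vegfa, the main VEGF, was read at 130.3, 132 and 95.3 CPM in the libraries numbered 2 and at 2.69, 6.62 and 0.72 CPM in those numbered 1, and astroglial-marker barcodes held 568, 722 and 682 CPM of it. Vegfb (-2.42), Apln, the apelin peptide (-4.61), and Angpt1 (-2.34) were also called higher in number 2. Angpt2, the Tie2 antagonist, had 4.97, with 2.54, 5.35 and 5.50 in the 3 pairs, 5.94 and 5.88 without control replicate 1 or 2 and 4.16 and 4.12 without GlastiKO replicate 1 or 2. It and Vegfc (4.70) were called higher in number 1. Angptl2 was too (1.32), but not without either library labelled GlastiKO (adjusted p = 0.267 and 0.261).

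All 21 barrier transporters were called higher in number 1 (median 5.38). Slco1a4, an organic anion carrier, was read at 4132, 3698 and 4700 against 66.4, 64.7 and 46.5 CPM. Slc2a1, the glucose carrier of the barrier, was read at 1593, 2018 and 1793 against 118, 123 and 97.3 CPM, and Slc6a6, the taurine carrier, at 2341, 2438 and 1950 against 216, 183 and 186 CPM. Slco1c1, the thyroxine carrier, had a mean of 2383 against 123 CPM (4.28). Outside the endothelium it was read mainly in astroglial-marker barcodes (379, 585 and 737 CPM). Mfsd2a, the lipid carrier that limits vesicle transport at the barrier (3.35), Slc16a1, a monocarboxylate carrier (2.67), and Slc3a2, the heavy chain shared by several amino acid carriers (1.98), had smaller differences, with 26.6 to 147 CPM of them in the libraries numbered 2.

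Of 10 genes of caveolae and vesicles, 8 were called higher in number 1, among them Cav1 (5.73 ± 0.21), the scaffold of caveolae, and Plvap, the diaphragm protein of leaky vessels. Plvap rested on the library labelled control replicate 1, with 549, 13 and 0 UMIs in the libraries numbered 1, and its log2 fold change of 5.45 was 3.26 without that library and 3.23 without control replicate 2. Cavin3 was called higher in number 2 (79, 66.2 and 53.3 against 164, 165 and 165 CPM), and oligodendrocyte-marker barcodes held 182, 189 and 182 CPM of it. Dnm2, a dynamin, was not called (142 against 131 CPM).

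Claudins and junction proteins split by member: of 24 tested, 14 were called higher in number 1 and 9 higher in number 2. Their share for number 2, 37.5%, was near the 38.3% over all genes tested, and that for number 1 was 58.3% beside 32.3%. Cldn5, the main claudin of the barrier, was read at 4347, 3518 and 4293 CPM in the libraries numbered 1 and at 69.5, 82.6 and 47.5 CPM in those numbered 2 (5.95 ± 0.30). Cldn11, the claudin of myelin, was read at 0, 1.1 and 3.6 against 2431, 2461 and 2106 CPM, and Cldn10 had 0.336, 4.96 and 2.16 CPM in the libraries numbered 1 and between 66.7 and 200 CPM in those numbered 2. Cldn5 is an endothelial and Cldn11 an oligodendrocyte marker. Cldn10 was read at 985, 741 and 696 CPM in astroglial-marker barcodes and at 2.84, 1.39 and 6.38 CPM in oligodendrocyte-marker barcodes, so the 3 claudins marked 3 classes. Cldn14 had no UMI in the libraries numbered 1 and 16.3, 17.4 and 17.7 CPM in those numbered 2, while Cldn12 was not called (10.4 against 6.62 CPM). Among adhesion proteins of the same junctions, Ocln, the gene of occludin (5.41), Lsr, a protein of tricellular junctions (5.90), and Jam2 (3.38) were higher in number 1, and Jam3 (-3.61) and Cdh2, N-cadherin (-1.74), in number 2. Tjp1, the scaffold ZO-1, was higher in number 1 (1.75).

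Connexins, which form gap junctions, were divided as well, with 2 of 8 called higher in number 1 and 6 in number 2. Gjc1 (connexin 45) was read at 150.3, 182 and 109 against 7.77, 12.8 and 8.94 CPM and Gja4 (connexin 37) at 29.9, 50.2 and 15.8 against 2.59, 6.7 and 2.18 CPM. Both were highest in mural-marker barcodes: Gja4 was at 308, 519 and 394 CPM there and at 15.1, 8.31 and 8.72 CPM in endothelial-marker barcodes of the same libraries, and Gjc1 at 629.6, 646 and 466 and 133, 149.6 and 109 CPM. The part of mural cells in the 2 differences was not tested beyond these values. Gjc3 and Gjb1 were read at 688, 706 and 740.0 and 216, 253 and 268 CPM in the libraries numbered 2, with the highest levels in oligodendrocyte-marker barcodes, and under 1 CPM in every library numbered 1. Gjb6 and Gjb2 were highest in astroglial-marker barcodes, at 776, 531 and 578 CPM and 34.2, 32.1 and 27.3 CPM, as was Gja1.

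SOX factors, which set cell identity, showed the same division: 4 of 15 were called higher in number 1 and 10 in number 2. The first were the 3 endothelial factors of the SoxF group, Sox7 (70.6, 74.4 and 51.9 against 0.432, 0.998 and 0.218 CPM), Sox17 (370.4, 286 and 344 against 6.37, 4.99 and 5.02 CPM) and Sox18 (509, 289 and 434 against 7.12, 9.13 and 3.05 CPM), with Sox13 (3.77). Sox10, the factor of oligodendrocytes, was read at 257, 298 and 265 CPM in the libraries numbered 2 from 1, 0 and 0 UMIs in those numbered 1, and Sox8 at 141, 145 and 133 CPM. Sox2, a factor of stem cells and astroglia, was read at 1.68, 6.06 and 1.44 against 179, 136 and 137 CPM. Sox9, an astroglial factor, differed less (-1.91 ± 0.13), with 28.9, 27 and 28.8 CPM in the libraries numbered 1, where endothelial-marker barcodes held 30.9, 26.2 and 23.8 CPM. Sox4 was not called (0.88, -0.56 and -1.41 in the 3 pairs).

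**Figure D4:**
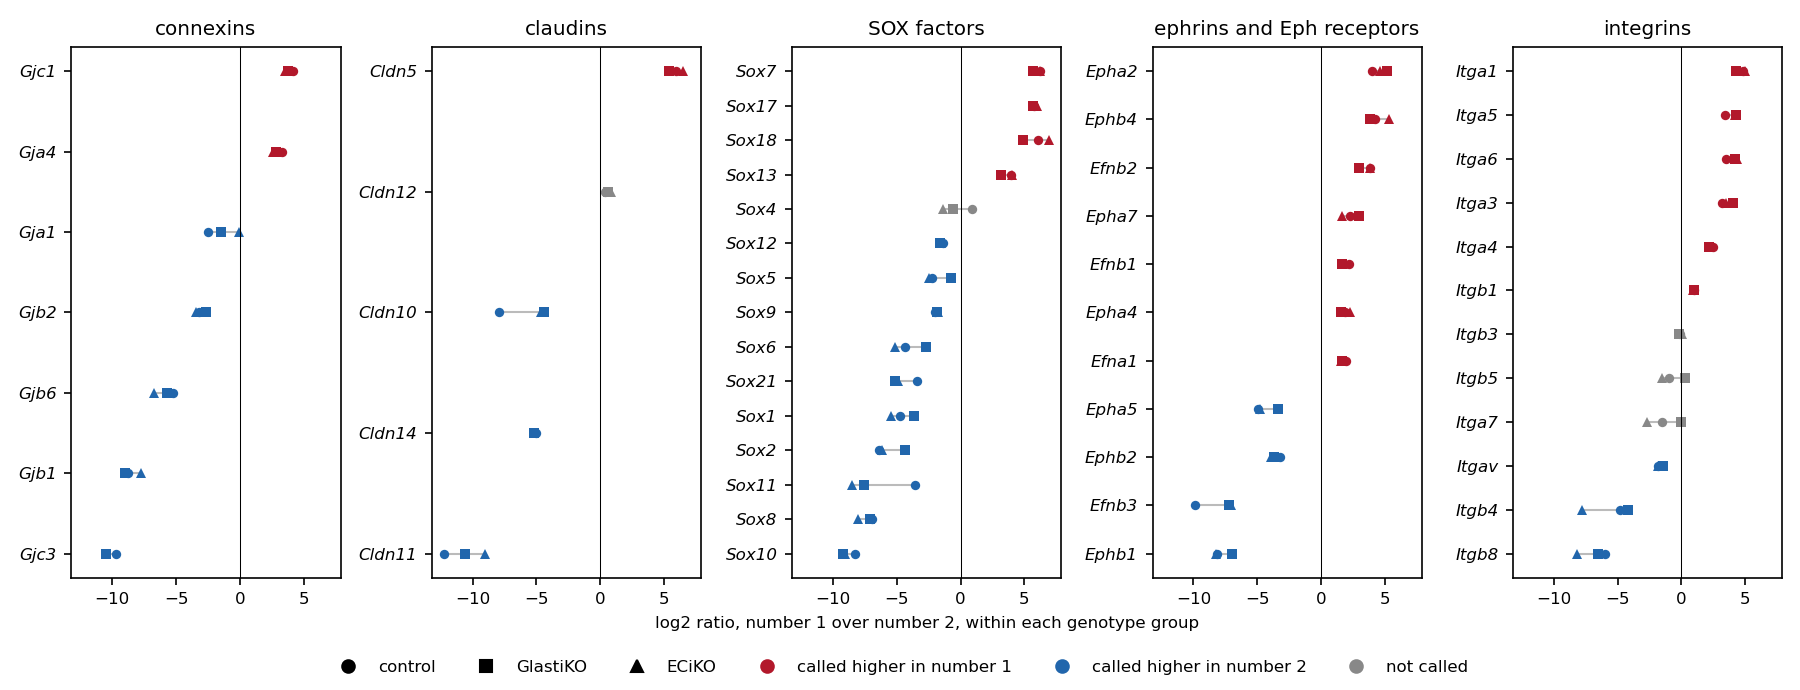
Log2 ratio of number 1 over number 2 within each of the 3 groups (x axis, symbols are groups) for members of 5 gene families (y axis), coloured by call. Each family has members on both sides of 0, such as Gjc1 and Gjc3, Cldn5 and Cldn11, Sox17 and Sox10, Ephb4 and Ephb1, and Itga1 and Itgb8, while Gja1 in the pair labelled ECiKO lies near 0.

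All 22 endothelial factors were called higher in number 1 (median 5.57). They included Klf2, a factor induced by blood flow (1245, 1646 and 1484 against 15.9, 30.9 and 13.3 CPM), and Epas1, the hypoxia factor HIF-2 alpha (1340, 1294 and 1346 against 67.7, 82.1 and 59.3 CPM). The ETS factors Erg (6.02) and Ets1 (5.49) and the forkhead factors Foxq1 (5.73) and Foxf2 (5.65), of brain vessels, were among them. Of 21 genes listed as glial factors, 18 were called higher in number 2. The list also holds 2 genes that are not transcription factors, Carns1, carnosine synthase (-6.42), and Dbi, an acyl-CoA binding protein (-3.89), both among the 18. Olig1 was read at 709, 749.8 and 618 against 0.672, 1.65 and 2.88 CPM, and Nkx6-2, a factor of myelination, at 432, 398 and 392 CPM with no UMI in the libraries numbered 1 (at least 182-fold). Prdm16 (2.33, or 1.48 with barcodes thinned to 500 UMIs) and Nfib (1.33) went the other way, and Zic1 was not called (36.2 against 26.5 CPM).

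In the Wnt pathway, which maintains the barrier, 15 of 24 genes were called higher in number 1 and 6 in number 2. Fzd4, a receptor (194, 239 and 174 against 12.7, 8.91 and 7.63 CPM), Reck and Adgra2, the co-receptors for Wnt7 ligands (4.56 and 5.10), Lef1, a nuclear effector (5.58), and the feedback genes Apcdd1 (758, 592 and 774 against 23.1, 32.4 and 20.1 CPM) and Axin2 (3.04) were higher in number 1. Fzd2, another receptor, was called higher in number 2 (1.68, 1.65 and 2.16 against 34.5, 36.6 and 27.7 CPM, -4.21 ± 0.27). The ligands Wnt7a and Wnt7b were read at 20.5, 12.3 and 10.0 and 21.1, 14.3 and 8.51 CPM in the libraries numbered 2 and under 2 CPM in each library numbered 1. Astroglial-marker barcodes held 102, 76.7 and 112 and 104, 87.8 and 87.3 CPM of them, oligodendrocyte-marker barcodes at most 1.06. Wnt5a went the other way (3.61), and Tcf7l2 was not called (61 against 73 CPM).

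In the Notch pathway 10 of 18 genes were called higher in number 1, 3 higher in number 2 and 5 in neither direction. The ligands Dll4 (103, 134 and 189 against 1.4, 2.07 and 1.75 CPM) and Jag2 and the receptor Notch4 (4.87) were higher in number 1, together with the target Hes1 (339, 361 and 323 against 39.2, 29.9 and 13.5 CPM). Hes5, the target of neural progenitors and astroglia, was higher in number 2 (106, 57.3 and 46.9 against 0, 2.76 and 0.72 CPM). Notch1 (2.54) was higher in number 1, and Rbpj, the DNA-binding partner of all Notch receptors, was not called (60.5 against 57.7 CPM). Notch3 (1.68) was read from mural-marker barcodes, at 804, 832 and 537 CPM against under 1 CPM in endothelial-marker barcodes, and thinned to 500 UMIs per barcode it was not called (0.67, adjusted p = 0.215). In all, 5 of the 10 genes higher in number 1 were highest in mural-marker barcodes.

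Of 23 genes of the BMP and TGF-beta pathways, 14 were called higher in number 1 and 8 in number 2. As shares these were 60.9% and 34.8%, beside 32.3% and 38.3% over all genes tested, so the second was near that of all genes. Id1 and Id3, targets of BMP signalling, were read at 1086, 922 and 1002 against 26, 33.7 and 27.9 CPM and 888, 684 and 669 against 94.4, 82.7 and 63.7 CPM, whereas Id4 was read at 12.8, 5.51 and 8.64 against 80.0, 107 and 63 CPM. The receptors were divided as well: Bmpr2 (3.30) and Tgfbr2 (5.84) were higher in number 1, and Bmpr1a (5.38, 7.17 and 7.2 against 55.3, 42.6 and 34.7 CPM) and Bmpr1b (-4.83) in number 2. Smad7 (-0.48 ± 0.15) and Id2 (-0.49 ± 0.16) were called higher in number 2 but lost the call without some libraries. For Smad7 adjusted p was 0.21 and 0.172 without the libraries labelled GlastiKO, and for Id2 it was 0.274 and 0.152 without those labelled control. Id2 also lost it without the genotype block (0.0809).

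Growth factor signals were divided by member. Whereas Pdgfb was endothelial, Pdgfa was read at 22.2, 30.3 and 20.2 against 161, 159 and 205 CPM, mainly from oligodendrocyte-marker barcodes (204, 199 and 238 CPM). Fgfr2 (315, 298 and 366 CPM in number 2), Fgf1 (123, 118 and 113) and Erbb3, the neuregulin receptor (118, 94.3 and 122), were under 5 CPM in every library numbered 1, whereas Hbegf (2.46) and Erbb2 (3.23) were higher in number 1. Pdgfrb, the receptor of pericytes (111, 164 and 32.4 against 34.2, 52.9 and 28.4 CPM), was called higher in number 1. It was at 1936, 1930.0 and 1541 CPM in mural-marker barcodes and at most 0.79 CPM in endothelial-marker barcodes, and with each barcode thinned to 500 UMIs its log2 fold change was -0.42 and not called. Among insulin-like factors, Igf1r (1712, 1356 and 2085 against 104, 87.5 and 112 CPM) and Igfbp3 (5.11) were higher in number 1, and Igfbp2 (0, 3.31 and 0 against 52.7, 66.7 and 112 CPM) and Igfbp5 (-4.97) in number 2.

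Ephrins, guidance cues and integrins were divided by member too. Ephb4 and Efnb2, the receptor and ligand that mark veins and arteries, were read at 83, 70.6 and 82.8 against 3.99, 4.49 and 1.53 CPM and 100.5, 68.4 and 117 against 6.58, 8.41 and 7.63 CPM, while Ephb1 and Efnb3 were read at 145, 132 and 146 and 470.1, 471 and 455 CPM in number 2. Of 22 semaphorins, plexins, Slits and Robos, 11 were called higher in number 1 and 8 in number 2. Sema3c (919, 785 and 880.2 against 15.2, 16.5 and 10.5 CPM) and Plxnd1, an endothelial semaphorin receptor (5.71), stood on one side, and Sema4d, a semaphorin of oligodendrocytes, on the other (206, 197 and 189.5 CPM in number 2, 0, 0 and 0.72 in number 1). Itga1 (4.72) and Itga6 (4.06), which bind collagen and laminin, were higher in number 1, and Itgb8 (-6.89) and Itgb4 (3.36, 4.96 and 0 against 105, 98.2 and 111 CPM) in number 2. Sema6a was not called (288, 175 and 265 against 244, 258 and 249 CPM).

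Genes of antigen presentation by class I MHC and of the interferon response were called higher in number 1 in all 25 members tested, with a median of 4.32. B2m, the light chain of class I MHC, was read at 1241, 1215 and 1111 against 60.0, 65.8 and 53.4 CPM, H2-K1 at 691, 749 and 663 against 45.9, 47.8 and 35.8 CPM, and Ifitm3, an antiviral membrane protein, at 849, 729.9 and 733 against 30.2, 42.7 and 25.1 CPM. Isg15 (4.54, or 2.82 with barcodes thinned to 500 UMIs) and the peptide carrier Tap1 (3.96) were among the rest. H2-K1, H2-D1 and the H2-Q genes are near-identical copies, so the division of reads among them is uncertain. Of the Ly6 surface proteins, Ly6c1 (2174, 2240 and 2209 against 47.9, 67.7 and 23.8 CPM, itself an endothelial marker), Ly6a (5.74) and Ly6e (5.79) were higher in number 1, and Lypd6 in number 2 (0, 0 and 0.72 against 10.8, 23.2 and 12.2 CPM). Leukocyte and microglial markers were checked for each library, and no library had more than 1.76 CPM of the 8 leukocyte markers together, while the 8 microglial markers came to between 22.9 and 40.1 CPM.

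Genes of vessel tone, clotting and leukocyte adhesion were called higher in number 1 in 14 of 21, 7 of 11 and 6 of 10 cases. Genes listed under vessel tone and called so included Nos3, the endothelial nitric oxide synthase (214, 185 and 205 against 4.53, 5.28 and 4.36 CPM), and Adgrf5 (6.04). A place in that list does not by itself make a gene vasoactive. Ednrb, an endothelin receptor, was higher in number 2 (188, 107 and 66.3 against 20.8, 6.06 and 0.72 CPM), so the ligand Edn1 and this receptor lay on opposite sides. Gng11 was called higher in number 2 (546 against 829 CPM), and Gnaq was not called (153 against 139 CPM). In haemostasis, Thbd, the anticoagulant thrombomodulin (321, 212 and 308 against 5.07, 3.56 and 2.83 CPM), and Plat, tissue plasminogen activator (2.76), were higher in number 1, and 5 of the 7 genes called that way were highest in mural-marker barcodes. F3, tissue factor, which starts clotting, was higher in number 2 (242, 175 and 109 against 2.69, 7.72 and 0.72 CPM), and astroglial-marker barcodes held 1191, 1106 and 1067 CPM of it. Mcam, listed as an adhesion protein of vessels, was higher in number 2 (38.7, 50.2 and 11.5 against 112, 107 and 85.5 CPM). Mural-marker barcodes of the libraries numbered 1 held 288, 366 and 287 CPM of it, oligodendrocyte-marker barcodes 144, 134 and 99.1 and endothelial-marker barcodes of number 1 23.6, 21.1 and 6.34 CPM.

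Of 20 genes of the vascular basement membrane, 19 were called higher in number 1 (median 2.94). Col4a1, a collagen IV chain, was read at 559.7, 560.1 and 516 against 24.2, 32 and 12.7 CPM, Fn1, fibronectin, at 823, 1045 and 1039 against 16.7, 17.3 and 13.3 CPM, and Igfbp7 at 1660, 2001 and 1242 against 67.1, 97.6 and 43.4 CPM. Lama2, a laminin chain, was called higher in number 2 (16.1, 25.9 and 4.32 against 55.4, 49.5 and 35.8 CPM), with 338, 346 and 327 CPM in mural-marker and 87.9, 105 and 106 CPM in astroglial-marker barcodes of number 2. Vtn, the gene of vitronectin and a mural marker, was read at 904, 1391 and 454 against 112, 266 and 104 CPM in the libraries, and at 16892, 16704 and 22538 CPM in the mural-marker barcodes of number 1 against at most 3.2 CPM in the endothelial-marker barcodes. Within the libraries numbered 2, 10 of the 19 genes were highest in mural-marker and 7 in endothelial-marker barcodes. Sparcl1 (0.81 ± 0.29), called higher in number 1, lost its call without either library labelled ECiKO (adjusted p = 0.141 and 0.225), without GlastiKO replicate 2 (0.056) and without the genotype block (0.0572). The matrix between neural cells went the other way, with 12 of 14 genes higher in number 2. Hapln2, a link protein of nodes of Ranvier (266, 266 and 300.1 CPM in number 2, 0, 0 and 1 UMIs in number 1), and Bcan, brevican (-5.47), were among them. One of 2 exceptions was Spock2, a testican, which was read at 3578, 3013 and 4249 CPM in number 1 and 61.1, 82.3 and 55.4 CPM in number 2, whereas Spock1 and Spock3 were read at 136, 119 and 160.3 and 187, 162 and 252 CPM in number 2 and at most 0.6 CPM in number 1.

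Myelin proteins had the lowest median of the gene lists. All 20 myelin proteins and all 17 enzymes of myelin lipids were called higher in number 2. Median log2 fold changes were -9.62 and -4.66, or -8.02 and -4.66 with genes at 0 in number 1 set to their bound. Mbp, myelin basic protein, was read at 2980, 3136 and 3206 against 1.34, 0 and 4.32 CPM, Cnp, an enzyme of the inner myelin surface, at 3374, 3873 and 3236 against 8.74, 7.72 and 13 CPM, and Cryab, a small heat shock protein, at 3129, 2983 and 3499 against 25.2, 17.6 and 8.64 CPM. Scd2, a fatty acid desaturase, was read at 4497, 4503 and 4520 against 182, 157 and 200.2 CPM, and Ugt8a, which makes galactosylceramide, at 930.4, 963 and 928 against 0, 0.551 and 1.44 CPM. Mal, a proteolipid of myelin, was an exception in degree: it was read at 336, 462 and 404 CPM in the libraries numbered 1 and 5933, 6530 and 5693 CPM in those numbered 2. Endothelial-marker barcodes of number 1 held 385, 532 and 442 CPM of Mal and those of number 2 519, 671 and 576 CPM, while mural-marker barcodes of number 1 held none. Mag, in contrast, was at 16.7, 14.2 and 0 CPM in the endothelial-marker barcodes of number 2 and at 0.39, 0 and 0 CPM in those of number 1. Whether free RNA or doublets add glial UMIs to barcodes of number 2 was not tested.

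Lipid synthesis and transport were higher on the glial side as well. Of 24 genes of cholesterol synthesis 23 were called higher in number 2 (median -1.84). Hmgcs1, an early enzyme of the pathway, was read at 40.3, 38 and 43.2 against 361, 366 and 298 CPM, and Msmo1 at 43.4, 26.5 and 40.3 against 316, 317 and 232 CPM. Of the 23, 15 were highest in astroglial-marker and 6 in oligodendrocyte-marker barcodes. Among lipid carriers 15 of 19 were called higher in number 2. Apoe was read at 553, 625 and 674 against 5098, 3904 and 3050 CPM, Apod at 106, 139.5 and 104 against 2689, 3232 and 4072 CPM, and Fabp5, a fatty acid binding protein, at 1.68, 7.17 and 5.76 against 917, 913 and 1030 CPM. Pltp, the phospholipid transfer protein, was higher in number 1 (2305, 1994 and 2213 against 54.6, 59.4 and 43.2 CPM), as was Scarb1, the HDL receptor (3.74), and Abca1 was not called (114 against 86.9 CPM).

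Astroglial functions lay on the same side, beside a share of astroglial-marker barcodes of 7.41% to 19.5% of the UMIs of the libraries numbered 2. Of 16 genes of glutamate and GABA handling 14 were called higher in number 2, and 11 of these were highest in astroglial-marker barcodes. Slc1a2, the main glutamate carrier and an astroglial marker, was read at 1446, 1623 and 896 against 34.3, 101 and 74.2 CPM. Glul, glutamine synthetase, was read at 770.1, 675 and 783 against 2515, 2340 and 2507 CPM (-1.73 ± 0.20). Slc1a1, a glutamate carrier, was endothelial, at 295, 334 and 363 against 7.55, 9.05 and 6.54 CPM, and endothelial-marker barcodes held 337, 387 and 398 CPM of it in number 1 and 409.9, 274 and 392 CPM in number 2. Slc38a3, a glutamine carrier, was also higher in number 1 (2.26). Of 15 endfoot genes 14 were called higher in number 2. They included Aqp4, the water channel (253, 202 and 110.1 against 3.02, 9.37 and 2.88 CPM). Kcnj10, the potassium channel Kir4.1, was read in both glial classes, at 723, 421 and 546 CPM in astroglial-marker and 376, 377 and 372 CPM in oligodendrocyte-marker barcodes. Dag1, dystroglycan, was higher in number 1 (1.08), but not when barcodes were thinned to 500 UMIs (0.63, adjusted p = 0.181). Of 20 glial adhesion genes 19 were called higher in number 2, such as Gpm6b (2128, 2135 and 2414 against 6.72, 24.3 and 13 CPM), Ncam1 (-6.84) and Cntn2 (565, 534 and 525 CPM in number 2, 0, 0 and 1 UMIs in number 1), and Cadm3 was not called.

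Iron genes were called in both directions, while most genes of glycolysis and the respiratory chain were called higher in number 2. Tfrc, the transferrin receptor (973, 647 and 838 against 72.8, 81.3 and 85.7 CPM), and Slc40a1, the iron exporter ferroportin (5.94), were higher in number 1. Trf, transferrin, was read at 4322, 4699 and 4418 against 3.02, 6.62 and 4.32 CPM and Fth1, the ferritin heavy chain, at 15230, 15830 and 18800 against 648, 739.8 and 645 CPM, so the receptor and its ligand lay apart. Oligodendrocyte-marker barcodes held 5680.0, 6082 and 5225 CPM of Trf and 19599, 19858 and 21458 CPM of Fth1. Of 16 glycolysis genes 12 were called higher in number 2, and 10 of these 12 had their highest level in choroid plexus-marker barcodes. The lactate dehydrogenase subunits were on opposite sides: Ldha was read at 211, 312 and 212 against 37.5, 50.5 and 52.1 CPM and Ldhb at 16.1, 29.2 and 9.36 against 203, 236 and 270.0 CPM. Ldhb was at 468, 498 and 461 CPM in astroglial-marker and 1779.9, 2020.5 and 1576 CPM in choroid plexus-marker barcodes. Of 86 nuclear genes of the respiratory chain and its assembly 76 were called higher in number 2 (median -1.03), such as Cox4i1 (300.2, 278 and 262 against 859.5, 979 and 1190 CPM) and Cox6c (-1.34). In 72 of these 76 the highest level was in choroid plexus-marker barcodes, which held between 1.87% and 6.83% of the UMIs, and Cox6c was at 1961, 3468 and 2788 CPM there, 661, 817 and 675 CPM in oligodendrocyte-marker and 301, 255 and 269 CPM in endothelial-marker barcodes of number 1. The isoforms Cox4i2 (2.70) and Ndufa4l2 (2.41) were higher in number 1, with 1.28 and 0.92 when barcodes were thinned to 500 UMIs. So was the assembly factor Ndufaf7 (0.74). Among these 3 genes, the highest level in number 2 was in mural-marker barcodes for 2 and in endothelial-marker barcodes for 1.

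Calls of mitochondrially encoded genes differed with the barcodes used. Of 13, 5 were called higher in number 2 and none higher in number 1, with mt-Co1 at 4064, 4206 and 4150 against 7725, 7304 and 8639 CPM (-0.93 ± 0.24). Those 5 made up 38.5%, near the 38.3% called higher in number 2 over all genes tested. In the sums over all deposited barcodes, without either limit (300 genes and 20% mitochondrial UMIs), all 13 were called higher in number 1, and mt-Co1 had a log2 fold change of 1.05. Cytosolic ribosomal protein genes differed little, with 6 of 81 called higher in number 1, 30 in number 2 and a median of -0.30. The share called higher in number 2, 37.0%, was near the 38.3% over all genes tested. Choroid plexus-marker barcodes had the highest level for 27 of the 30.

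Cytoskeletal genes followed a division between actin and tubulin. Of 26 actin and contractile genes 20 were called higher in number 1, among them Myl6, a myosin light chain (869, 1001 and 785 against 374, 448 and 483 CPM), and Arhgap29, a GTPase-activating protein (4.84), and 10 of the 20 were highest in mural-marker barcodes within number 2. Tmsb4x, thymosin beta 4, was not called (3827, 3887 and 3230 against 3320, 3730 and 4266 CPM). Of 22 tubulin and microtubule genes 15 were called higher in number 2, such as Tubb4a (1781, 1786 and 1860 against 4.03, 6.06 and 5.04 CPM), Stmn1 (1803, 1777 and 2264 against 84, 61.7 and 90.0 CPM) and Mapt, the gene of tau (-7.69). Tuba1b (1.20) and Tubb6 (3.87) were higher in number 1. Of the annexins and S100 proteins, 8 annexins were called higher in number 1, led by Anxa3 (5.69), and S100 genes were called in both directions. Among the 10 genes of both families called higher in number 1, 2 were highest in endothelial-marker barcodes within number 2. Another 4 were highest in mural-marker, 3 in choroid plexus-marker and 1 in astroglial-marker barcodes. S100a11 (100.2, 116 and 95.8 against 6.8, 9.48 and 10.2 CPM) and S100a10 (log2 fold change 0.98) were higher in number 1, S100a10 not without either control library (adjusted p = 0.679 and 0.77) or by DESeq2 (0.166), and S100b (-6.01), S100a6 (-4.64), S100a1 (-2.05) and S100a16 (-1.79) higher in number 2.

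Immediate early genes, which respond to dissociation and other stimuli within minutes, were called higher in number 1 in 20 of 22 cases (median 3.47). Fos was read at 890.1, 1285 and 665 against 342, 197 and 325 CPM, Jun at 936, 1286 and 640.3 against 443, 343 and 385 CPM, and Apold1, an endothelial early gene, at 246, 748 and 348 against 6.26, 11.2 and 3.27 CPM. The libraries did not overlap in these 3 genes. In 14 of the 20 the highest level in number 2 was in mural-marker barcodes, with Fos at 5978, 4693 and 5143 CPM there and 308, 118 and 266 CPM in oligodendrocyte-marker barcodes. Endothelial-marker barcodes held 739, 1002 and 715 CPM of Fos in number 1 and 1422, 756 and 26.2 CPM in number 2, so the library labelled ECiKO replicate 2, with 21 such barcodes, stood apart from the rest. Thinned to 500 UMIs per barcode, Fos had an adjusted p of 0.0564 and was not called. Heat shock genes were called in both directions, with 6 of 16 higher in number 1 and 7 in number 2. These shares, 37.5% and 43.8%, were near the 32.3% and 38.3% over all genes tested. Hspb1 (959, 654 and 768 against 20.3, 27.6 and 15.3 CPM) and Hspa1a (519, 562 and 282 against 61.4, 37.2 and 34 CPM) were higher in number 1, and Hsp90aa1 (294, 272 and 205 against 2187, 1989 and 2418 CPM) in number 2. The highest level in number 2 was in mural-marker barcodes for 4 of the 6 and in endothelial-marker barcodes for 0. Mural-marker barcodes of number 2 held 1452, 714 and 655 CPM of Hspa1a, beside 66.9, 198 and 0 CPM in endothelial-marker barcodes. Haemoglobin genes, of red blood cells, held 1.65%, 3.73% and 1.76% of the used UMIs of the libraries numbered 1 and at most 0.194% of those numbered 2, and without them 4074 and 4739 genes were called.

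**Figure D5:**
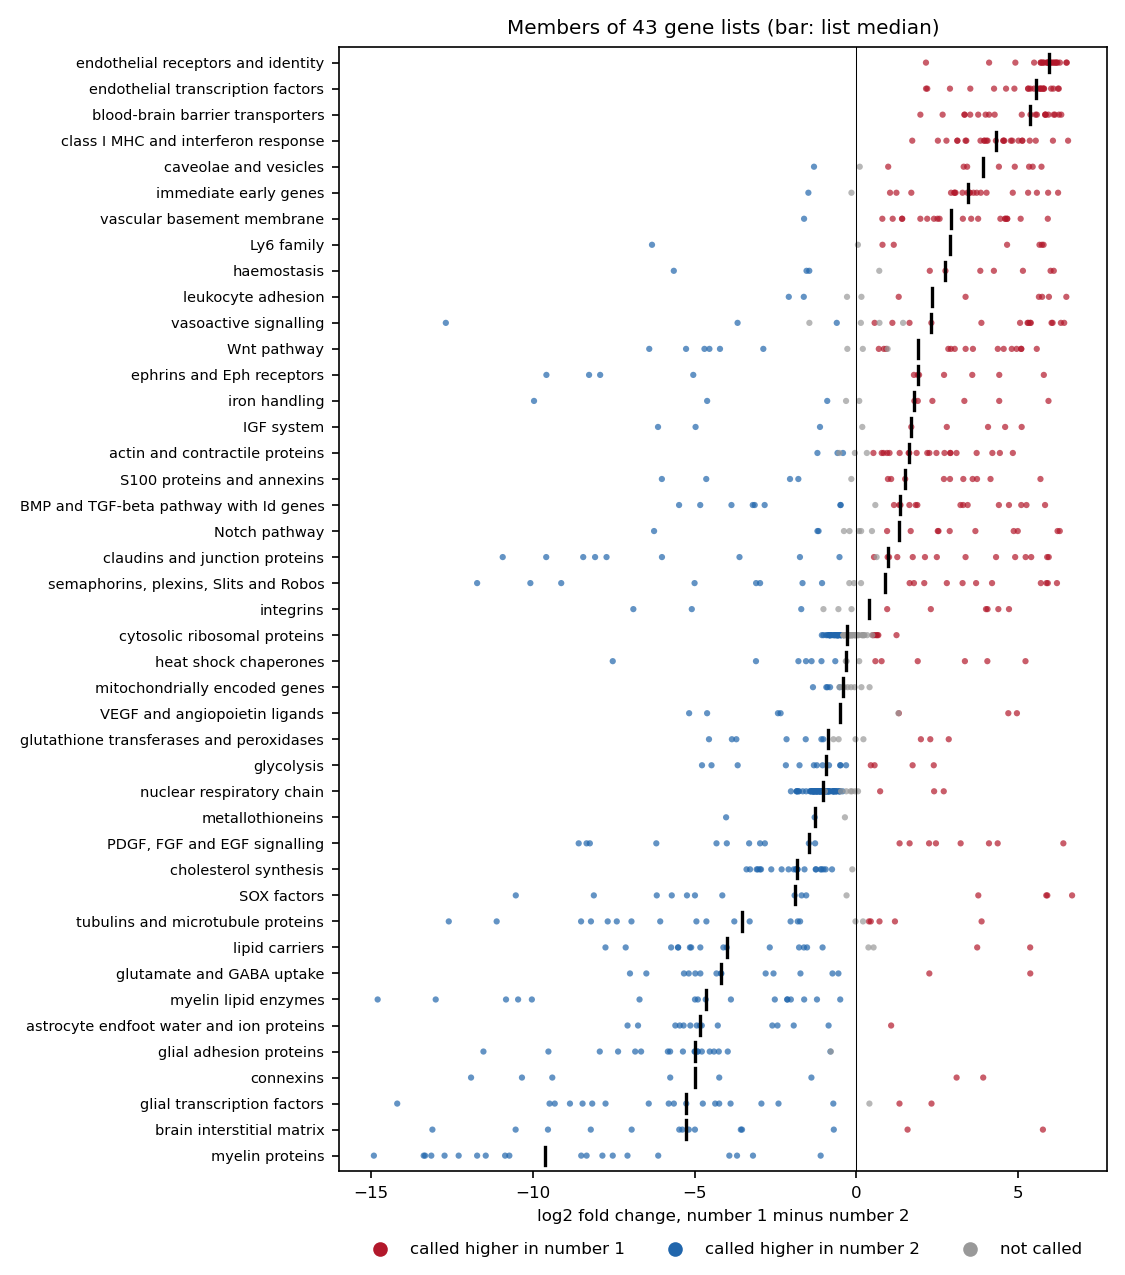
Log2 fold change, number 1 minus number 2 (x axis), of the tested members of 43 gene lists (y axis, ordered by median), with each point a gene coloured by call and a bar at the list median. Endothelial receptors, factors and barrier transporters lie wholly to the right (medians 5.95, 5.57 and 5.38), myelin genes wholly to the left (-9.62), and junction, Wnt, BMP and guidance genes on both sides.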

How the data were processed

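Single-cell libraries were made with the 10x 3′ kit, version 3.1, per the labels' protocols. The deposited matrices hold raw UMI counts per gene and barcode that Cell Ranger called as cells against mm10, version 5.0.0 per the labels and the file headers but 2.1.1 per the submitters' processing notes, which also list Seurat 4. From these, UMIs were summed per library over barcodes with at least 300 genes and at most 20% mitochondrial UMIs. No doublet caller was run, and libraries shared at most 1 barcode. Sums were tested with edgeR 4.0.16 in R 4.3.3 (filterByExpr, TMM, quasi-likelihood test, genotype group as a block, 2 residual degrees of freedom, Benjamini-Hochberg at 0.05 over 12442 genes). The script was tested on simulated data. The block is the genotype label the 2 libraries share, and the labels do not say that they share an animal. Gene positions are from GENCODE M21. The members, gene lists and tests were chosen with earlier results of these data known. Named genes were Gja1, the 12 genes per direction with the largest smallest-group ratio among those at 20 CPM or more, and the most abundant members of each list per direction and among those not called; other list members named here, the barcode classes and the 19 motifs were chosen after values were seen. Classes came from 5 or more marker UMIs, at least 70% of 1 class. Standard errors come from the spread pooled over genes. Alternatives were DESeq2 1.42.0, other scalings, no filter, no block, other barcode limits, barcodes thinned to 500 UMIs, removal of mitochondrial, ribosomal or haemoglobin genes, and leaving out each library. Some list members are not reported here.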

Additional observations from a re-analysis of the deposited data

Results flagged for a closer look

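Among the genes named above and called between the library numbers, 4 had 1 group in the opposite direction to the other two. Other called genes were not searched here. The difference between groups was not tested, since each group holds 1 pair of libraries. Cspg4, a proteoglycan of pericytes and oligodendrocyte precursors, had a log2 ratio of -0.23 in the pair labelled ECiKO, against 1.42 and 2.35 in control and GlastiKO. Mural-marker barcodes of the libraries numbered 1 held 556, 819 and 430.0 CPM of it and made up 4.27%, 6.24% and 1.46% of those libraries. Tubb5, a beta-tubulin, had -0.06 in the pair labelled ECiKO, against 1.28 and 0.89. S100a10, an S100 protein, had -0.18 in the pair labelled GlastiKO, against 2.12 and 0.54. Egr2, an immediate early gene, had 0.13 in the pair labelled GlastiKO, against -1.94 and -2.48.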

How the results depend on the processing

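Of 217 called genes named in the text, 203 kept their call in every alternative that tested them, and most exceptions are given beside their values. Gng11, Cspg4, Tubb5, Sparcl1 and mt-Co1 also lost it with thinned barcodes, and Angptl2, Id2 and Egr2 with DESeq2. With barcodes thinned to 500 UMIs, which tests 7193 genes, 1664 genes were called higher in number 1 and 1784 in number 2, and 1106 and 1111 of the called genes were at least 2-fold apart in every pair. Leaving out each library in turn gave 3454 to 4087 genes higher in number 1 and 4182 to 4892 in number 2, and 2225 to 2452 and 2673 to 3097 at least 2-fold apart in every remaining pair. Between 41 and 43 of the 43 gene lists then kept their majority direction, and 828 to 844 of the 844 abundant genes kept their sign within the remaining libraries. Without the genotype group as a replicate block, 4114 and 4854 genes were called and 2112 and 2601 met the limit in every pair. Scaling by library totals moved the median of all genes from -0.10 to -0.007 and the share of calls higher in number 1 from 45.8% to 49.2%. The VEGF and angiopoietin ligands, iron handling and the IGF system lost their majority direction in some alternatives, and the mitochondrially encoded genes reversed it with all deposited barcodes.

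Signs changed in 3 called genes, in 1 alternative each: with thinned barcodes Pdgfrb became -0.42 and Smad7 0.09 (not called), and with all deposited barcodes mt-Co1 became 1.05. The cause was not tested. Among genes not called, thinning gave -0.22 for Abca1, -0.03 for Dnm2, 0.35 for Sema6a, 0.01 for Tmsb4x and -0.93 for Zic1, and library totals gave 0.03 for Sema6a and 0.05 for Tmsb4x. Leaving out each library in turn gave ranges across 0 for Rbpj (-0.06 to 0.14), Dnm2 (-0.05 to 0.25), Sema6a (-0.26 to 0.17), Sox4 (-1.0 to 0.19), Tmsb4x (-0.2 to 0.13) and Zic1 (-0.03 to 0.66). Tubb5 and Egr2 lost their calls without either control library (adjusted p = 0.0773 and 0.147, and 0.288 in both), Tubb5 also without GlastiKO replicate 2 (0.0548) and Egr2 without ECiKO replicate 1 or 2 (0.063 and 0.0559).

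With 1 pair of libraries per group and 2 residual degrees of freedom, the comparison separates library numbers, and cell type, sorted fraction and library preparation cannot be told apart between libraries. The library labelled ECiKO replicate 2, at a median of 786 UMIs per barcode, limits what can be seen in its 21 endothelial-marker barcodes.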

Other observations

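The barcodes left out by the limits on genes and mitochondrial UMIs differed between the library numbers. They were 310, 213 and 161 barcodes with 29.9%, 31.1% and 23.7% of the deposited UMIs in the libraries numbered 1, and 134, 122 and 170 barcodes with 3.51%, 3.605% and 4.24% in those numbered 2. Haemoglobin genes held 71.8%, 59.7% and 55.0% of the left-out UMIs in the first and 37.0%, 62.9% and 34.1% in the second.

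Of the 374 abundant genes higher in number 1 in every pair, 301 had their highest mean level within the libraries numbered 2 in endothelial-marker barcodes and 59 in mural-marker barcodes. Of the 470 higher in number 2, 342 were highest in oligodendrocyte-marker, 64 in choroid plexus-marker and 57 in astroglial-marker barcodes, and none in endothelial-marker barcodes.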
